A study of Mus musculus with 15 samples.

Results

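The gene families of the zinc-dependent metalloproteinases that cut extracellular matrix and cell-surface proteins, and of the inhibitors that block them, were measured. The tissue was whole lung of mice with allergic airway inflammation. Members were the protein-coding genes whose mouse symbol is Mmp, Timp, Adamts or Adam followed by a digit, leaving out Mmp8 and Mmp9, the matrix proteases of neutrophil granules. They numbered 76 of the 55421 genes in the count table: 33 Adam, 20 Mmp, 19 Adamts and 4 Timp genes. Of these, 53 had enough counts to be tested (18 Adam, 14 Mmp, 17 Adamts and all 4 Timp), 22 were too low, and Adam6a had no count in any library.

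RNA sequencing of whole lung lobes (total RNA) covered 15 wild type female C57BL/6 mice, 5 in each of 3 groups, whose age the labels do not state. All 15 mice received 10 µg of house dust mite (HDM) extract through the nose, 5 days a week for 2 weeks, and were killed on day 15. In the short-term group mesenchymal stem cells (MSCs) from adipose tissue were given through the nose on day 13, and in the long-term group on day 6. The HDM group received the extract without MSCs. MSCs, stromal cells kept in culture, are known to act on immune and epithelial cells through what they secrete. The labels do not state whether HDM mice received a vehicle on those days, nor the species and line of the MSCs. The design text names saline controls, not analysed here, so each value is relative to inflamed lung.

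MMPs are secreted or membrane-bound proteases that are made as inactive precursors and cut collagens, elastin, proteoglycans and other proteases. ADAMs sit in the membrane, and some of them shed the outer part of other membrane proteins, such as cytokines, growth factors and their receptors. Whether each member is an active protease was not examined here. ADAMTS proteases are secreted and act on procollagens, fibrillin-rich microfibrils and large proteoglycans. TIMPs bind the active site of these enzymes, and Timp3 stands apart among them in binding to the matrix and blocking several ADAMs and ADAMTSs. In the asthmatic lung these families are studied for airway remodelling, leukocyte migration and the release of cytokines.

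Total counts per library were 17182599 to 32119067 for short-term, 31762964 to 41762167 for long-term and 29635897 to 44201637 for HDM mice. Among the 15, short-term replicate 3 was unlike the rest. Its total was the lowest and its level of thymocyte genes the highest, with a sum of 3453 CPM (counts scaled to a common library total), against 22.4 to 37.9 CPM in the other 4 short-term libraries. Of the 53 tested members, 25 had their lowest value of all 15 libraries in it (28.003% of all tested genes did) and 9 their highest (26.7% of all tested genes). Adam12, a metalloprotease of developing muscle and stroma, reached 30.3 CPM in it, against 7.64 to 9.26 CPM in the other short-term libraries. Values are therefore given with all 15 libraries unless stated otherwise, and many of them also without this library. The part of thymic tissue in the values of short-term replicate 3 was not tested. In whole lung a lower level cannot be told apart as fewer cells of a type or as less RNA in each cell.

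The tested members differed widely in level. Levels were set between genes as CPM divided by the kilobases of merged exon, averaged over all 15 libraries. Mmp12, the macrophage elastase, stood highest at 125 CPM per kb, followed by the inhibitors Timp3 at 89.8 and Timp2 at 88.6 and by Mmp2, a gelatinase of stromal cells, at 75.5 CPM per kb. The leading Adam genes were the sheddases Adam9 at 49.96 and Adam10 at 43.4 CPM per kb, and the leading Adamts gene was Adamts1, which cuts versican and aggrecan, at 28.5 CPM per kb. At the other end, 20 of the 53 tested members averaged under 10 CPM before length was considered, among them Timp4 and the germ-line genes Adam3, Adam5 and Adam32. The order of Timp3 and Timp2 was not beyond their spread: Timp2 lay between 194 and 424 CPM and Timp3 between 596 and 889 CPM over the 15 libraries, with exons of 3896 and 8144 bases.

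**Figure D1:**
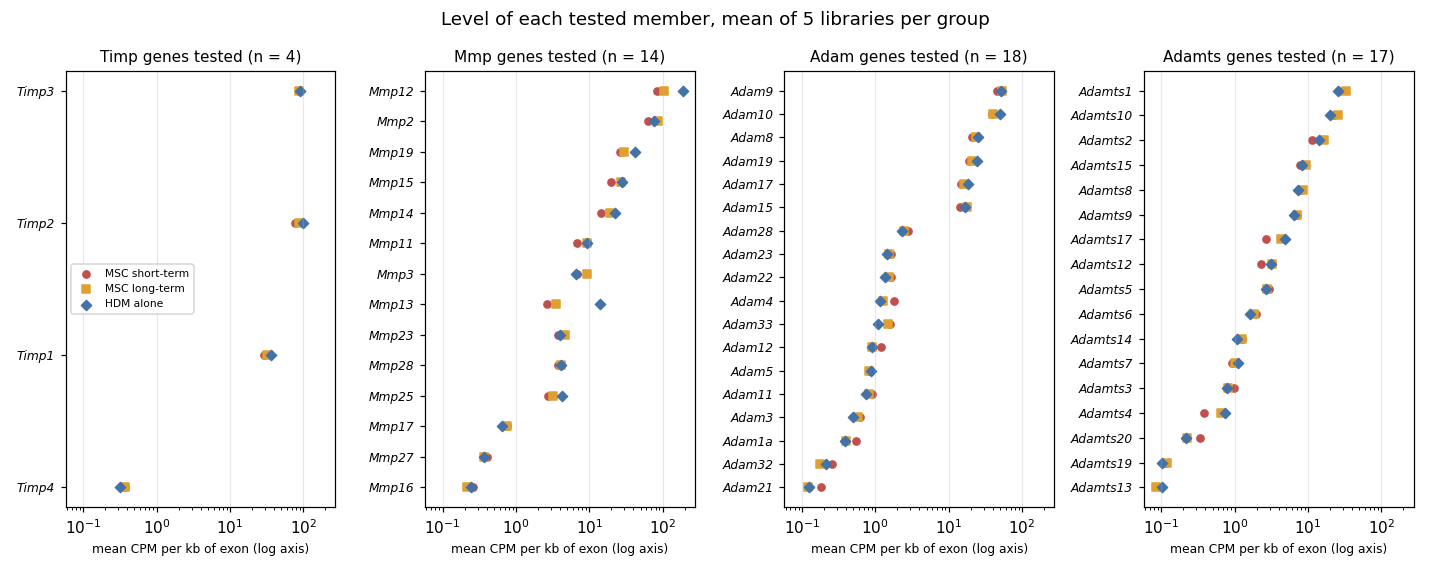
Mean level of each of the 53 tested members in the short-term (circles), long-term (squares) and HDM (diamonds) groups, in CPM per kilobase of exon on a log axis, by family (each point the mean of 5 libraries). Mmp12 leads at 125 CPM per kb over all libraries, and the largest gaps between groups are those of Mmp13 and Mmp12.

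Setting the short-term group against HDM asks how MSCs given late in the challenge bear on these genes. With all 15 libraries 3 members fell. Mmp13, the main collagenase of mice, had a log2 fold change of -2.39. Adamts17, a secreted protease whose loss causes a Weill-Marchesani-like connective tissue syndrome in humans, was at -0.88, and Adam10, the sheddase of Notch, CD23 and E-cadherin, at -0.37. None was higher past the test. The test was edgeR's quasi-likelihood test with the p adjusted over all 19562 genes tested, and a gene passed at an adjusted p under 0.05. Over all genes 2.89% were called lower and 1.90% higher. The members' 3 of 53 lower and 0 of 53 higher differ from that background by less than 2 genes in each direction, so the calls are described singly. The members were split evenly about 0, with 27 above and 26 below and a median log2 fold change of 0.01, against 0.03 over all tested genes.

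Without short-term replicate 3 the count was 4 members: Adamts17 and Adam10 again lower, and Adam33 and Adamts8 higher. The background then was 3.36% of 19657 genes lower and 3.23% higher, so the members' 2 and 2 of 53 lie near it. By family the median log2 fold changes with all libraries were -0.37 for Mmp, 0.23 for Adam, 0.10 for Adamts and -0.16 for Timp genes. With that library left out they were -0.19, 0.07, 0.07 and 0.0033 in the same order, so the Timp median changed sign and the others moved toward 0. The Adam median counts genes of any level alike. With all libraries 11 of the 18 tested Adam genes were above 0, while Adam9, Adam10 and Adam8, the highest in level, were below it. An unadjusted p under 0.05 was reached by 16 members with either set of libraries, against 4640 of all genes with 15 libraries and 4932 without that library.

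**Figure D2:**
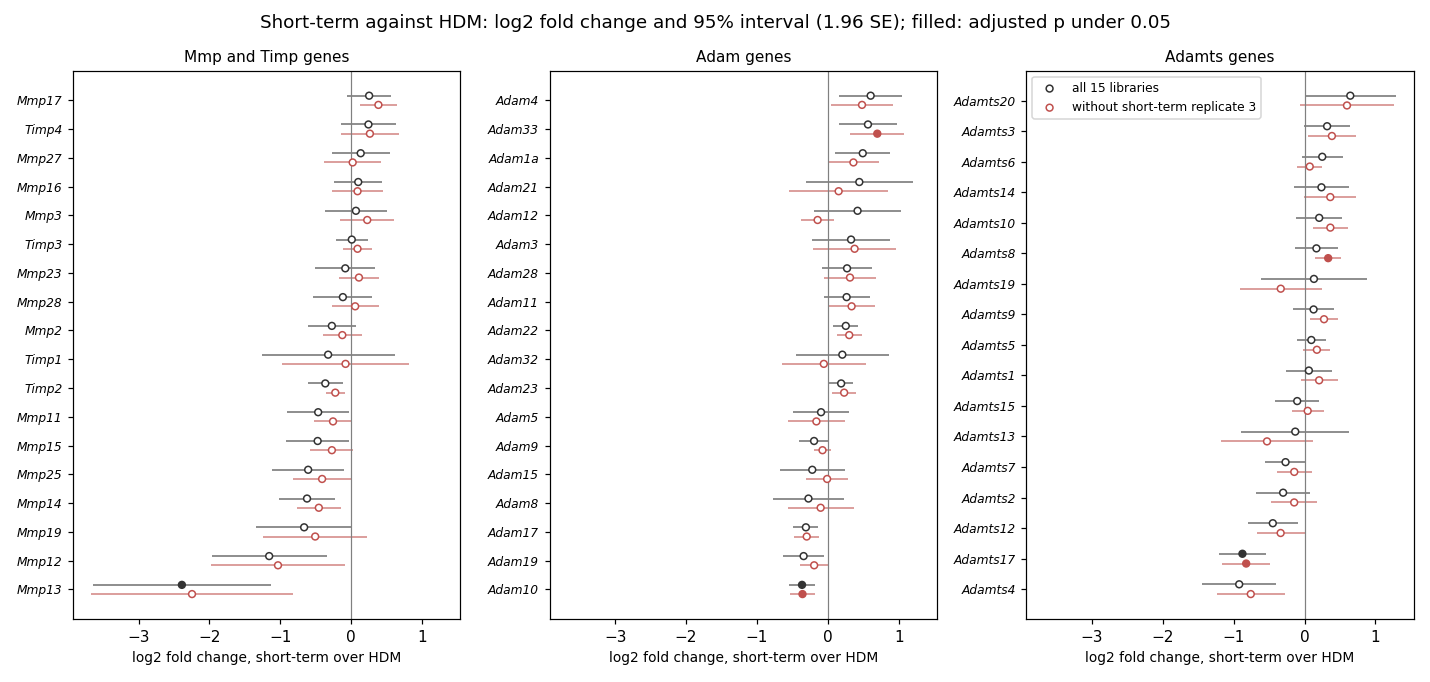
Log2 fold change of each of the 53 tested members, short-term over HDM (horizontal axis), with 95% intervals, for all 15 libraries (dark) and without short-term replicate 3 (red); filled points passed an adjusted p of 0.05. Mmp13 lies farthest left at -2.39 with the widest bar among the Mmp genes, and the filled points are Mmp13, Adamts17 and Adam10 with all libraries and Adamts17, Adam10, Adam33 and Adamts8 without that library.

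Mmp13 (ENSMUSG00000050578, GRCm38 chromosome 9, 7272514 to 7283331) and Mmp12 (ENSMUSG00000049723, chromosome 9, 7344381 to 7369499) lie in 1 cluster of Mmp genes with 61050 bases between them, and they moved together between libraries. The cluster holds 8 members, from 7272514 to 7699585, of which 4 were tested. Many genes of this cluster are known to respond to AP-1, the dimer of Fos and Jun proteins, through a site close to the start. The promoters of both genes are shown because they share that motif near the start and because both genes kept the same order of libraries within each MSC group. Each window runs from 250 bases before to 50 bases after the RefSeq start on GRCm38.p6, plus strand, 5′ to 3′, and capitals mark TGANTCA (N is any base), which reads the same on both strands. Mmp13 lies at chr9:7272264-7272563 and Mmp12 at chr9:7347124-7347423.
Mmp13: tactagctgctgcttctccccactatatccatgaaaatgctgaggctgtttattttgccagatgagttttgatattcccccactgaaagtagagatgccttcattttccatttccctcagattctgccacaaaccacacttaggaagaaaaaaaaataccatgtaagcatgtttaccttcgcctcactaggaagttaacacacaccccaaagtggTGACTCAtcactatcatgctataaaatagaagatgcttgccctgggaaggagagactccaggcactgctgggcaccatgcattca
Mmp12: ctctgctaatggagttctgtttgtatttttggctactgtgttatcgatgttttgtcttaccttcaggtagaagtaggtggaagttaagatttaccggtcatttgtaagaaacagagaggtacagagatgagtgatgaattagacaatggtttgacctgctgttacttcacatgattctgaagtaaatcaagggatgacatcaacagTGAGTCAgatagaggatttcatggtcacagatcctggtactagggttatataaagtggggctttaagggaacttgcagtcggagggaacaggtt
The motif began 35 bases before the start in Mmp13 and 44 bases before it in Mmp12. RefSeq gives Mmp12 a second window, in which these letters do not occur. In the whole family 47 members had a window and 12 held the motif. These were 7 of the 8 members of the chromosome 9 cluster (Mmp1b, Mmp3, Mmp7, Mmp10, Mmp12, Mmp13 and Mmp20) and 5 of the 39 others (Adam19, Adam1b, Adam20, Adam25 and Adam29). The match read TGAATCA in Mmp20, Adam20 and Adam25, and TGAGTCA or TGACTCA in the rest. Over all genes with a window, 8.97% of 27025 held the motif with any base at N, and 4 of the 32 tested members with a window did. Mmp3, another tested gene of the cluster, held the motif 46 bases before its start. Its log2 fold change against HDM was 0.07 for short-term and 0.48 for long-term, against -2.39 and -2.002 for Mmp13. Mmp19, on chromosome 10 and not among the 12 with the motif, kept a like order of libraries. From high to low this was 1, 2, 4, 5 and 3 for short-term and 4, 1, 2, 5 and 3 for long-term. The part of the motif or cluster in these values was not tested. A match describes the letters of these windows and is not a site of binding.

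Mmp13 had 14.5, 9.66, 4.36, 5.35 and 1.56 CPM in the short-term libraries (replicates 1 to 5). It had 10.6, 7.95, 4.71, 14.5 and 9.07 CPM in the long-term libraries, and 35.7, 55.4, 3.56, 35.3 and 57.5 CPM in the HDM libraries. Of the HDM libraries 4 lay above every MSC library, while HDM replicate 3 lay below all but 1 of them, so the groups overlapped through that library. The log2 fold change of the short-term group was -2.39 (SE 0.64, adjusted p = 0.0491), with means of 7.09 ± 5.08 CPM for short-term and 37.5 ± 21.7 CPM for HDM (SD, n = 5 each). This call was at the edge of the threshold. It was kept only without HDM replicate 3 (-2.83, adjusted p = 0.0130) or short-term replicate 1, and was lost without any other single library, with adjusted p from 0.0513 without long-term replicate 3 to 0.0984 without HDM replicate 2. Leaving out short-term replicate 3 gave -2.25 (adjusted p = 0.0839). In the long-term group the log2 fold change against HDM was -2.002 (SE 0.63, adjusted p = 0.180), which did not pass.

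Mmp12, the elastase of alveolar macrophages, showed a like pattern at a far higher level. It had 1071, 726, 420, 542 and 264 CPM in the short-term libraries, 927, 576, 525, 1011 and 736 CPM in the long-term libraries, and 1610, 2225, 349, 1353 and 1209 CPM in the HDM libraries. Again 4 HDM libraries lay above every MSC library and HDM replicate 3 was lower than all but 1. Mmp12 did not pass: its log2 fold change was -1.16 (SE 0.41, adjusted p = 0.107) for short-term and -0.84 (SE 0.41, adjusted p = 0.384) for long-term against HDM. Without HDM replicate 3 the short-term value was -1.40 (adjusted p = 0.0286). That was the only 1 of the 15 edgeR fits leaving out 1 library that called Mmp12. Leaving out short-term replicate 3 gave -1.03 (adjusted p = 0.204), and the adjusted p ran up to 0.229, without HDM replicate 2. The libraries stood in the same order for Mmp12 and Mmp13 within the short-term group, with replicate 1 highest, then 2, 4, 3 and 5, and within the long-term group, with replicate 4 highest, then 1, 5, 2 and 3. Within HDM the orders differed, but replicate 3 was lowest for both. Mmp12 alone made up 32.6% to 73.1% of the summed CPM of all Mmp members in a library.

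HDM replicate 3 held the lowest HDM value for 18 of the 53 tested members, which is 33.96%, against 22.05% of all tested genes. Besides Mmp12 and Mmp13 these included Mmp14, which activates the Mmp2 precursor at the cell surface, Mmp19, Timp1 and Adam8. Its summed expression of 7 alveolar macrophage markers, 3167 CPM, was also the lowest of the HDM libraries. In HDM replicates 1 and 2, which were highest for Mmp12, this sum was 3761 and 5638 CPM. That sum was 2378 to 5419 CPM in the short-term libraries (3804 to 5419 without replicate 3), 3677 to 5556 CPM in the long-term libraries and 3167 to 5638 CPM in HDM, and none of its 7 genes was called. The list of monocytes and interstitial macrophages summed to 352 to 702 CPM in the short-term libraries, 571 to 850 CPM in the long-term libraries and 585 to 896 CPM in HDM. In HDM it was lowest in replicate 2, at 585 CPM, with 608 CPM in replicate 3 and 685 CPM in replicate 1. Of its 8 genes 3 were called lower for short-term against HDM. Cartilage markers, checked because chondrocytes make Mmp13, summed to 21.5 to 31.3 CPM in the short-term libraries, 17.7 to 32.0 CPM in the long-term libraries and 17.9 to 28.4 CPM in HDM, and 1 of the 5 tested of 12 was called higher in the short-term group. No marker of these 3 lists was at 0 in all libraries, and their part in the Mmp12 and Mmp13 values was not tested.

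**Figure D3:**
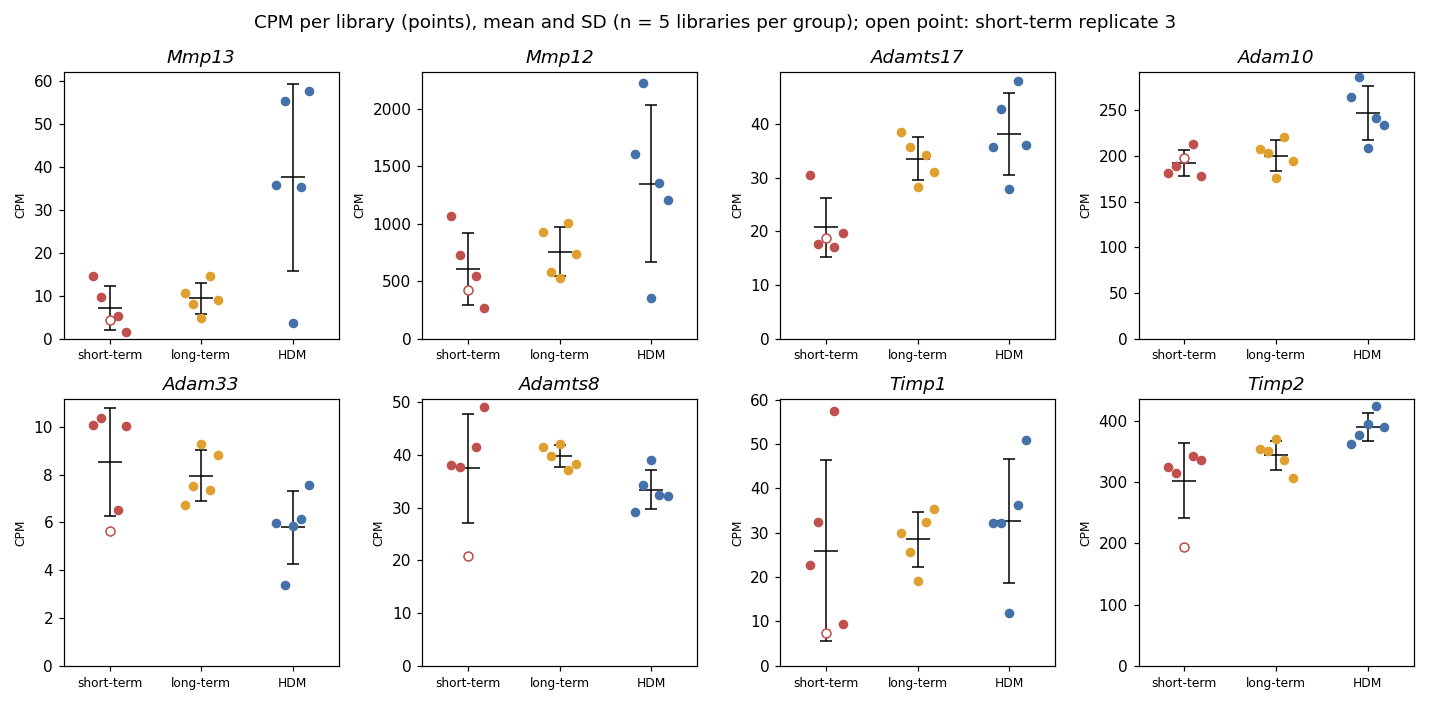
CPM (vertical axes, starting at 0) of 8 members in each library of the short-term, long-term and HDM groups, with the mean and SD of 5 libraries; the open point is short-term replicate 3. For Mmp13 and Mmp12 the HDM library at 3.56 and 349 CPM lies among the MSC libraries, and for Adamts17 the short-term library at 30.5 CPM lies above the other 4.

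The other Mmp genes did not pass edgeR's test in any comparison. Mmp14 had 107, 109, 47.9, 93.9 and 70.2 CPM in the short-term libraries and 115, 125, 99.1, 163 and 159 CPM in HDM, with a log2 fold change of -0.62 (SE 0.20, adjusted p = 0.0760). The groups overlapped, since 2 short-term libraries lay above the lowest HDM library. Mmp19, made by stromal cells and macrophages, was at -0.66 (SE 0.34, adjusted p = 0.254), and Mmp2 at -0.27 (SE 0.17, adjusted p = 0.361). Leaving out short-term replicate 3 gave -0.46 for Mmp14, -0.51 for Mmp19 and -0.13 for Mmp2. Mmp3, a stromelysin that cuts proteoglycans and activates other MMPs, had means of 12.4 ± 4.07 CPM for short-term and 11.9 ± 2.55 CPM for HDM (SD, n = 5 each) and did not pass. Mmp19 shares exon sequence with Tmem198b on the other strand, and Mmp12 with Mmp1b; the strand setting of the counting is not given, so their reads cannot be told apart. Mmp1b was at 0.0245 CPM on average. Summed over the family, Mmp expression was 1793, 1394, 749.9, 1196 and 811 CPM in the short-term libraries, 1827, 1291, 1203, 1879 and 1395 CPM in the long-term libraries, and 2247, 3045, 999.8, 2345 and 2198 CPM in HDM.

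Among the Adam sheddases Adam10 (ENSMUSG00000054693, chromosome 9, 70678997 to 70780229) fell slightly. It had 181, 189, 198, 213 and 178 CPM in the short-term libraries, 208, 203, 176, 221 and 194 CPM in the long-term libraries, and 265, 286, 208, 241 and 234 CPM in HDM. The groups overlapped by HDM replicate 3 alone, which lay below the highest short-term library. The short-term log2 fold change was -0.37 (SE 0.09, adjusted p = 0.0361), with means of 192 ± 14.2 CPM for short-term and 247 ± 29.9 CPM for HDM (SD, n = 5 each), and -0.36 (adjusted p = 0.0328) without short-term replicate 3. The call was lost in 9 of the 15 fits that left out 1 library, namely without HDM replicates 1, 2, 4 or 5, long-term replicates 1 or 5, or short-term replicates 1, 2 or 5. The log2 fold changes over all 15 such fits ran from -0.42 to -0.29, with adjusted p of up to 0.0929 without short-term replicate 5. In the long-term group Adam10 was at -0.30 against HDM (SE 0.09, adjusted p = 0.157).

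Adam17, the sheddase that releases tumour necrosis factor and ligands of the epidermal growth factor receptor, was also below HDM without passing. It had 113, 112, 108, 109 and 91.0 CPM in the short-term libraries, against 141, 149, 108, 125 and 137 CPM in HDM, with a log2 fold change of -0.31 (SE 0.09, adjusted p = 0.0568). Its low HDM library was again replicate 3, without which the adjusted p was 0.0198. Adam17 shares exon sequence with Iah1 on the other strand, which averaged 25.8 CPM. Adam9, a broad sheddase, was at -0.20 (SE 0.11, adjusted p = 0.272), and Adam8, a sheddase of leukocytes studied in asthma, at -0.27 (SE 0.25, adjusted p = 0.551). Without short-term replicate 3 Adam9 was at -0.08 and Adam8 at -0.10.

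Adam33, a gene linked to asthma risk in humans and expressed in airway smooth muscle and fibroblasts, was higher in the short-term group once replicate 3 was left out. It had 10.1, 10.4, 5.62, 6.51 and 10.1 CPM in the short-term libraries, 6.75, 7.53, 9.30, 7.36 and 8.83 CPM in the long-term libraries, and 5.97, 3.39, 5.87, 6.14 and 7.59 CPM in HDM. Replicates 1, 2 and 5 of the short-term group lay above every HDM library, and replicates 3 and 4 lay within the HDM range. The log2 fold change was 0.56 (SE 0.21, adjusted p = 0.113) with all libraries and 0.70 (SE 0.19, adjusted p = 0.0444) without short-term replicate 3. That was the only 1 of the 15 edgeR fits leaving out 1 library that called Adam33. The adjusted p ran up to 0.205, without short-term replicate 5. Smooth muscle markers moved the same way: their sum was 1149 to 1493 CPM in the 4 remaining short-term libraries (635 CPM in replicate 3), 1060 to 1307 CPM in the long-term libraries and 841 to 1061 CPM in HDM. All 6 of these markers were called higher in the short-term group without replicate 3, none with it, and none was at 0 in all libraries. Fibroblast markers summed to 4135 to 5074 CPM in the 4 remaining short-term libraries (2381 CPM in replicate 3). In the long-term libraries their sum was 4445 to 6663 CPM, and in HDM 3881 to 5310 CPM. Of these 8 markers 0 were called in the short-term group with either set of libraries. The part of either list in the Adam33 value was not tested.

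Adamts17 (ENSMUSG00000058145, chromosome 7, 66839735 to 67153171) was the call that held whichever single library was left out. It had 30.5, 17.7, 18.7, 17.2 and 19.7 CPM in the short-term libraries, 38.6, 35.8, 28.3, 34.2 and 31.1 CPM in the long-term libraries, and 35.7, 42.9, 27.9, 48.1 and 36.1 CPM in HDM. Short-term replicates 2 to 5 lay below every long-term and HDM library, and replicate 1 lay within their range, so the groups overlapped by that library. The short-term log2 fold change against HDM was -0.88 (SE 0.17, adjusted p = 0.0152), with means of 20.8 ± 5.54 CPM for short-term and 38.1 ± 7.68 CPM for HDM (SD, n = 5 each). Leaving out short-term replicate 3 gave -0.82 (SE 0.17, adjusted p = 0.0166). Over the 15 fits that each left out 1 library its log2 fold change ran from -1.06 to -0.78, with adjusted p of up to 0.0488. The call was lost in a fit of the 10 short-term and HDM libraries alone (-0.86, adjusted p = 0.0874) and without HDM replicates 1 and 2 together (-0.83, adjusted p = 0.0542). No other annotated gene shares exon sequence with Adamts17, Adam10 or Mmp13.

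Adamts10, which like Adamts17 is tied to fibrillin microfibrils, did not pass in either direction. Its means were 188 ± 52.1 CPM for short-term and 163 ± 23.5 CPM for HDM (SD, n = 5 each), a log2 fold change of 0.21 (SE 0.17, adjusted p = 0.483) with all libraries and 0.36 (SE 0.12, adjusted p = 0.0828) without short-term replicate 3. Adamts8 (ENSMUSG00000031994, chromosome 9, 30942562 to 30963838), a secreted member with high expression in lung, had 38.0, 37.8, 20.9, 41.5 and 49.2 CPM in the short-term libraries and 29.2, 34.2, 39.1, 32.5 and 32.1 CPM in HDM. Short-term replicate 3 was the lowest of all 15 libraries for it, and HDM replicate 3 overlapped the rest. With all libraries its log2 fold change was 0.17 (SE 0.16, adjusted p = 0.557), and without short-term replicate 3 it was called higher at 0.33 (SE 0.09, adjusted p = 0.0437). No other of the 15 edgeR fits leaving out 1 library called it. The adjusted p ran up to 0.848, without short-term replicate 5. Gm29724, an antisense gene at 1.19 CPM, shares exon sequence with it.

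Adamts4, Adamts1 and Adamts2 did not pass edgeR's test with all libraries. Adamts4, an aggrecanase, had 1.67, 2.22, 0.948, 2.58 and 1.88 CPM in the short-term libraries, 4.20, 3.06, 2.64, 3.02 and 2.84 CPM in the long-term libraries, and 3.19, 2.92, 1.99, 4.62 and 5.13 CPM in HDM. All 5 short-term libraries lay below all 5 long-term libraries, while HDM replicate 3 lay among the short-term ones. Its log2 fold change against HDM was -0.92 (SE 0.27, adjusted p = 0.0576), and it was called without HDM replicate 3 (-1.07, adjusted p = 0.0260) or short-term replicate 4 (-1.07, adjusted p = 0.0428). Adamts1 was at 0.06 (SE 0.17) and Adamts2, which removes the amino-terminal propeptide of fibrillar procollagens, at -0.30 (SE 0.20), with adjusted p of 0.860 and 0.371. Leaving out short-term replicate 3 gave -0.76 for Adamts4, 0.21 for Adamts1 and -0.15 for Adamts2.

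None of the 4 inhibitors passed edgeR's test with all libraries. Timp2, which blocks MMPs and also takes part in the activation of Mmp2, had 324, 315, 194, 343 and 335 CPM in the short-term libraries, 354, 351, 370, 337 and 307 CPM in the long-term libraries, and 363, 377, 396, 424 and 390 CPM in HDM. All 5 short-term libraries lay below all 5 HDM libraries, with replicate 3 far below the rest. Its log2 fold change was -0.37 (SE 0.12, adjusted p = 0.0923), and -0.23 (SE 0.07, adjusted p = 0.0599) without short-term replicate 3. It was called lower with all libraries by limma voom (adjusted p = 0.0166) and DESeq2 (adjusted p = 0.0354), and by edgeR without short-term replicate 3 and HDM replicates 1 and 2 (adjusted p = 0.0181). Timp2 was the only 1 of 53 members whose short-term and HDM libraries did not overlap, against 6.25% of all tested genes. Without short-term replicate 3 there were 2 such members, Timp2 lower and Mmp17 higher, against 9.59% of all genes. Mmp17, a membrane-type protease named after its values were seen, then had 4.67 to 6.15 CPM in the short-term libraries and 3.53 to 4.62 CPM in HDM.

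Timp1, an inhibitor induced by inflammation, was the most variable of the 4. It had 22.7, 32.5, 7.39, 57.5 and 9.48 CPM in the short-term libraries, 29.9, 25.7, 19.2, 32.3 and 35.4 CPM in the long-term libraries, and 32.3, 32.1, 11.9, 36.2 and 50.9 CPM in HDM. The short-term libraries spanned the whole range of the others, and the log2 fold change of -0.33 carried an SE of 0.48 (adjusted p = 0.725). Without short-term replicate 3 the log2 fold change was -0.08 (SE 0.46). Timp3 had means of 738 ± 109 CPM for short-term, 722 ± 62.2 CPM for long-term and 735 ± 86.0 CPM for HDM (SD, n = 5 each). Its 95% interval for short-term against HDM ran from -0.22 to 0.23 on the log2 scale. Timp4 had means of 2.22 ± 0.278 CPM for short-term and 1.88 ± 0.591 CPM for HDM (SD, n = 5 each), a log2 fold change of 0.24 (adjusted p = 0.487). Exons of Timp3 and Timp4 overlap those of the synapsin genes Syn3, at 3.22 CPM, and Syn2, at 17.9 CPM, on the other strand.

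**Figure D4:**
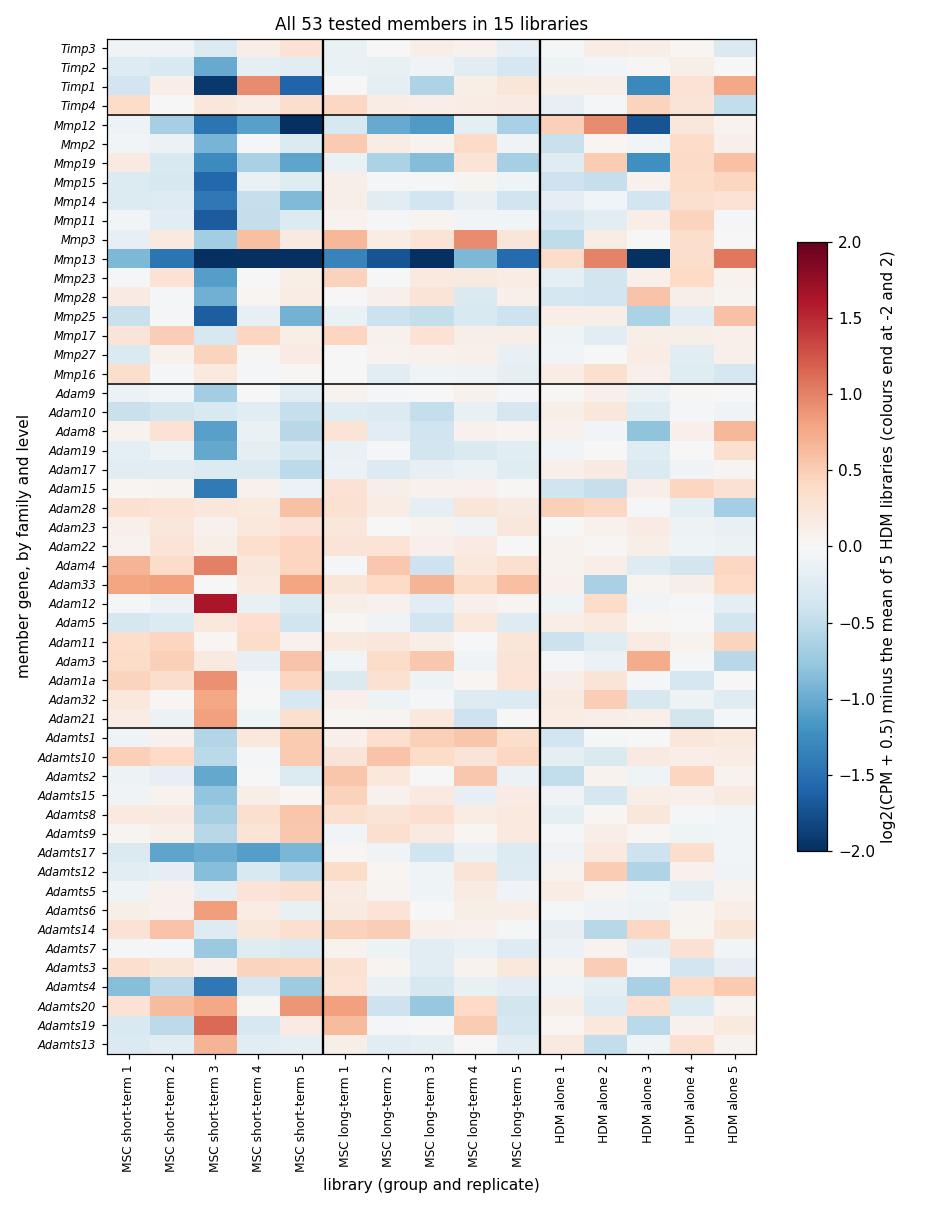
All 53 tested members (rows, grouped as Timp, Mmp, Adam and Adamts and ordered by level) in the short-term, long-term and HDM libraries (columns), as log2(CPM + 0.5) minus the mean of the 5 HDM libraries; colours end at -2 and 2. Short-term replicate 3 stands out as a column of many low and some high values, HDM replicate 3 is low for Mmp12, Mmp13, Mmp19 and Timp1, and the Mmp13 row is low in all 10 MSC libraries.

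Setting the long-term group against HDM asks what remains of an earlier dose. No member passed by edgeR (0 of 53), and 0.0971% of all genes did. At an unadjusted p under 0.05 there were 7 members (Adam10, Adam17, Adam33, Adamts1, Adamts10, Mmp3 and Mmp13), against 2712 of all 19562 genes. Of the members, limma voom called 0, and DESeq2 called 2, Adam10 and Mmp13. Leaving out short-term replicate 3, which bears on this comparison only through the shared fit, edgeR called 2.20% of all genes and again 0 members, with 10 members and 3979 of 19657 genes at an unadjusted p under 0.05. Adamts10 was the only 1 of 53 members with no overlap between these groups, against 5.30% of all genes: it had 194, 240, 209, 193 and 217 CPM in the long-term libraries and 143, 133, 184, 176 and 180 CPM in HDM. Its log2 fold change was 0.37 (SE 0.17, adjusted p = 0.338). Adamts1 was at 0.36 (SE 0.17, adjusted p = 0.350) and Mmp3 at 0.48 (SE 0.23, adjusted p = 0.359). Summed over the family, Adamts expression was 877.1 to 954 CPM in the long-term libraries and 686 to 874.9 CPM in HDM, so that the 2 ranges all but met. The same sums of the Mmp, Adam and Timp genes overlapped between these groups, while the sum of B-cell markers, given below, lay apart. How often the sums of sets of genes lie apart in this way was not counted. The sum leans on members of high level, among them Adamts10 and Adamts1, which did not pass. The short-term and long-term comparisons share the 5 HDM libraries, so like values in both are not independent of each other.

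The short-term group was also set directly against the long-term group. By edgeR no member and 0% of all 19562 genes passed, and the same held without short-term replicate 3, with 0% of 19657 genes. Unadjusted p under 0.05 were reached by 6 members and 1514 genes with all libraries, and by 5 members and 940 genes without that library, while DESeq2 and limma voom called 0 members. The 6 were Adamts17 at -0.69 (SE 0.17), Adamts4 at -0.74 (SE 0.27), Adamts2 at -0.54 (SE 0.20), Adamts12 at -0.49 (SE 0.18), Mmp2 at -0.47 (SE 0.17) and Adam1a at 0.44 (SE 0.20), each with an adjusted p of 0.623. The fall of Adamts17 in the short-term group is therefore not shown to differ from its value in the long-term group, although 4 of 5 libraries lay apart. Groups without overlap were found for Adamts4 and Mmp15, both lower in the short-term group, with either set of libraries. That is 2 of 53 members, against 2.10% of all genes with 15 libraries and 2.98% without short-term replicate 3. Mmp15, a membrane-type protease named after its values were seen, had 120, 117, 48.8, 133 and 122 CPM in the short-term libraries and 157, 143, 141, 151 and 138 CPM in the long-term libraries.

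The partners and targets of these enzymes were followed in 7 related lists, whose counts are read against the same background over all genes (2.89% lower and 1.90% higher with all libraries, 3.36% and 3.23% without short-term replicate 3). Of 11 tested activators of MMPs (the plasminogen system and proprotein convertases), 0 were called in the short-term group. Their median log2 fold change was -0.16 with all libraries and -0.01 without short-term replicate 3. Of 8 other inhibitors and surface regulators 1 was lower, Cd44, a docking receptor for MMPs, at -0.44 (SE 0.12, adjusted p = 0.0459). None of 8 partners of Adam10 and Adam17 (iRhoms and tetraspanins) was called. Among 22 membrane proteins shed by ADAMs 1 was lower, Tnfrsf1b, a receptor for tumour necrosis factor, with means of 76.8 ± 17.4 CPM for short-term and 113 ± 15.0 CPM for HDM (SD, n = 5 each), a log2 fold change of -0.55 (adjusted p = 0.0390). Without short-term replicate 3 this list had 4 lower genes, among them Tnfrsf1b at -0.40 and the cadherins Cdh1 at -0.28 and Cdh5 at -0.32, and 1 higher gene, the Notch ligand Jag1 at 0.25. Fcer2a, the IgE receptor CD23 that Adam10 sheds, was at -0.78 (SE 0.22, adjusted p = 0.0556) with all libraries. It is also a B-cell gene, and 5 of 6 B-cell markers were called lower in the same comparison, and all 6 without short-term replicate 3. Their sum was 119 to 239 CPM in the short-term libraries, 188 to 255 CPM in the long-term libraries and 304 to 397 CPM in HDM, and none was at 0 in all libraries. Their part in the Fcer2a value was not tested.

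None of 11 ADAMTS-like proteins and proteoglycan substrates and none of 8 astacin and other matrix proteases was called in the short-term group with all libraries, and Adamtsl5 was higher without short-term replicate 3 (0.60, adjusted p = 0.0462). Of 10 tested AP-1 and ETS factors 0 were called with all libraries, with a median of -0.02, and Ets1 was lower without that library (-0.23, adjusted p = 0.0476). In the long-term group against HDM, and in the short-term against the long-term group, 0 genes of any of the 7 lists were called with either set of libraries. The left-out proteases Mmp8 and Mmp9 were at -0.91 (adjusted p = 0.0226) and -0.62 (adjusted p = 0.0179) in the short-term group against HDM.

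The 23 members below the test's filter had few counts, many of them in 1 library. Of these, 21 had their highest CPM in short-term replicate 3, which held 174 of their counts, against 389 in the other 14 libraries together. That library had counts for 43174 genes in all, against 26542 to 29154 genes in the others, and the part of this wide spread of counts in the members' values was not tested. They are largely Adam genes of the male germ line, such as Adam2 and Adam18, with Adamts16, Adamts18 and the matrix proteases Mmp7, Mmp10, Mmp20, Mmp21, Mmp24 and Mmp1b. Adam20, Adam25, Adam29, Adam34 and Adam39 had counts in that library alone. Outside it no untested member exceeded 0.439 CPM in any library, so a difference between groups was not detectable at this depth. Adam6a and Adam6b, and Adam26a and Adam26b, are close copies whose reads may be shared or dropped, and how such reads were counted is not stated.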

How the data were processed

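The authors deposited 1 table of raw counts per Ensembl gene for the 15 libraries, made with STAR 2.5.3a on GRCm38, per the submitters' processing notes. The libraries were stranded total RNA, per the labels' protocols. Which tool counted the reads, on which strand and with which annotation was not given in the sources used here. Nothing says whether replicates were separate experiments beyond being separate mice.

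Symbols, biotypes, coordinates and exon lengths came from GENCODE M21 (GRCm38). It matched 55240 of 55421 identifiers. Promoter windows came from RefSeq (GRCm38.p6). Counts were filtered with filterByExpr, scaled by TMM and fitted together in 1 model with the quasi-likelihood tests of edgeR 4.0.16 (robust, two-sided) in R 4.3.3. The p-values were adjusted by Benjamini-Hochberg over all genes tested, and the scripts were tested on simulated data. CPM used TMM-scaled library sizes, and errors cover the spread between 5 mice per group. The SE of an edgeR log2 fold change was derived from the F statistic of its test. Intervals are 1.96 SE to each side, which is narrower than the test itself implies. Alternatives were RLE and upper-quartile scaling, other filters, no robust shrinkage, limma 3.58.1 voom, DESeq2 1.42.0, fitting the compared libraries alone, leaving out each library, and leaving out HDM replicates 1 and 2 with and without short-term replicate 3.

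The members and gene lists were chosen with earlier results of these data known. Genes named with values were those called in any comparison with or without short-term replicate 3, all Timp genes, in each comparison the 2 Mmp, Adam and Adamts genes with the smallest p, and the 3 of each with the highest level per kb, with called members of each related list. Members named in the text outside this rule (Adam12, Adamts12, Mmp15, Mmp17, the low germ-line Adam genes, the members below the filter and those listed for a promoter motif) were named after their values were seen. A few genes of the related lists and of exon overlaps are not reported here. Figures were drawn with matplotlib 3.10.9.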

Additional observations from a re-analysis of the deposited data

Results flagged for a closer look

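In 66 groups of 5 libraries of the named genes, 5 held a library far from the other 4 by Dixon's test at the 95% level, where chance gives about 1 in 20. Adamts17 had 30.5 CPM in short-term replicate 1, against 17.2 to 19.7 CPM in the other short-term libraries. Adam17 had 91.0 CPM in short-term replicate 5, against 108 to 113 CPM in the others of that group. Timp2 had 194 CPM in short-term replicate 3, against 315 to 343 CPM in the others. In long-term replicate 1, Adamts4 had 4.20 CPM, against 2.64 to 3.06 CPM in the other long-term libraries, and Timp4 had 2.58 CPM, against 2.04 to 2.10 CPM. Only 1 of the 5 was in short-term replicate 3, and the cause of each was not tested.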

How the results depend on the processing

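The count of 3 members called between the short-term group and HDM depended on the fit. It was 3 with RLE scaling and without robust shrinkage, and 1 (Adamts17) with upper-quartile scaling, with no filter on low counts and with a mean of at least 1 CPM. DESeq2 called 8 (Adam10, Adam17, Adamts4, Adamts17, Mmp12, Mmp13, Mmp14 and Timp2, all lower). Limma voom also called 8 (Adam10, Adamts4, Adamts17, Mmp15 and Timp2 lower, Adam28, Adam33 and Adamts3 higher). It was 0 when only the libraries compared were fitted, in which case 0 of all genes passed, and 0 without HDM replicates 1 and 2 together. It was 8 without short-term replicate 3 and HDM replicates 1 and 2 together, of which 1, Adamts17, was among the 3. Leaving out 1 library at a time gave 1 to 6 members. For the long-term group against HDM the count was 0 in every alternative except DESeq2, which gave 2, and for the short-term against the long-term group it was 0 in all of them. Of the values of single named genes, 1595 kept their side of the threshold, 37 lost a call and 18 gained one. Some values that were not called changed sign. Adam8 for long-term against HDM, for example, ran from -0.25 to 0.11 over the fits that left out 1 library. The causes were not tested. No paired analysis was possible because the labels give no replicate numbers and the numbers used here follow only the order of the samples. Depth limited the 23 members below the filter and those under 10 CPM, such as Adamts4, whose values rest on few reads.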
